A study of Mus musculus with 12 samples.

Results

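Hyaluronan genes were taken as 9 genes of the count table (9 of 18996 genes) that synthesise, break down or bind this polymer. They were found in the table by gene symbol, from a list drawn up with earlier results of these data known: the synthases *Has1*, *Has2* and *Has3*, the breakdown genes *Hyal1*, *Hyal2* and *Cemip*, and the binding genes *Vcan*, *Tnfaip6* and *Cd44*. All 9 were in the table and all 9 passed the filter on low counts. Bulk RNA sequencing was done on tissue from BALB/c mice, 5 to 7 weeks old, with 4 mice in each of 3 groups. The study states that it included mice of both sexes, and the labels do not give the sex of these mice. No operation mice gave paraspinal soft tissue without surgery. SHAM mice had paraspinal soft tissue removed with the laminae left in place. Laminectomy mice lost the laminae as well, so that the dura was exposed. Soft tissue together with scar was taken from both surgical groups on day 7. The No operation tissue therefore differed from the surgical tissue in kind as well as in surgery, and which mice the study kept for its own 3 per group is not stated, so all 4 were used here.

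Hyaluronan is a very long, unbranched sugar polymer of the extracellular matrix. It is spun out through the plasma membrane by hyaluronan synthases from the activated sugars UDP-glucuronic acid and UDP-N-acetylglucosamine, is cut by hyaluronidases and by the hyaluronan-binding protein CEMIP, and is held in the matrix or at the cell surface by proteins such as versican, TSG-6 and CD44. Provisional wound matrix is known to be rich in hyaluronan and versican, and long and short chains are known to act differently on inflammatory cells.

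Library totals ranged from 16802988 to 18077863 counts. The 12 skeletal muscle fibre markers, led by *Myh4* and *Acta1*, summed to between 105000 and 148000 CPM (a gene's count scaled to the TMM-adjusted library total, the unit of every level here) in No operation mice, between 2550 and 10100 CPM in SHAM mice and between 3580 and 14900 CPM in Laminectomy mice, and all 12 were lower in both surgical groups. The 10 fibroblast markers summed to 8900 to 28300, 59000 to 79700 and 55000 to 68200 CPM in the same order, with 7 higher and 1 lower in each surgical group. The 10 macrophage markers summed to 611 to 1360, 3120 to 5580 and 2000 to 2560 CPM, with 10 higher in SHAM and 9 in Laminectomy mice. No gene of these first 3 lists was at 0 in every mouse of a group. Adipocyte markers summed to 2120 to 3690 CPM in No operation mice, 277 to 1790 in SHAM mice and 75.1 to 473 in Laminectomy mice, with 5 and 8 of 8 lower. Of 5 T and NK cell markers tested, 4 were higher in each surgical group (sums of 1.05 to 10.9, 18.5 to 24.7 and 14.8 to 26.7 CPM), and 4 of 8 blood endothelium markers were lower in each (871 to 1150, 577 to 790 and 533 to 778 CPM). The 10 bone markers summed to 52.2 to 1040, 1240 to 2600 and 2470 to 5450 CPM, a sum led in each group by *Spp1*, which macrophages also express. Of these, 1 was higher and 2 lower in SHAM mice (median log2 fold change of the list -2.25) and 2 were higher in Laminectomy mice (median 1.06). Higher and lower here mean called against No operation, as defined below. Of all genes tested, 25.7% were called higher and 25.1% lower in SHAM mice, and 24.2% and 24.4% in Laminectomy mice. These shifts lay between the same groups of mice as the differences from No operation given here. Their part in those differences was not tested. In bulk tissue, fewer cells of a type and less RNA per cell cannot be told apart.

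Promoter sequence is shown for 3 members that rose in SHAM mice, each with a different motif, as context for the counts, and they were chosen after the motifs had been searched. The windows run from 250 bases before to 50 bases after the RefSeq gene start (GRCm38.p6), and 7 of the 9 members have one (*Has2* and *Has3* have no entry). Capitals mark the motif, and each piece is written 5′ to 3′ on the strand of its gene. *Has1* lies on the minus strand and its piece is chr17:17855209-17855308, with the cyclic AMP response element TGACGTCA at 83 to 76 bases before the start. *Tnfaip6* lies on the plus strand and its piece is chr2:52037908-52038007, with an AP-1 motif (TGANTCA) at 142 to 136 bases before the start. *Cemip* lies on the minus strand and its piece is chr7:84086506-84086605, with a TATA box (TATAAA) at 29 to 24 bases before the start.
Has1: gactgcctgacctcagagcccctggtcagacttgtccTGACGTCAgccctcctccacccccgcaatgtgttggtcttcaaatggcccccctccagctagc
Tnfaip6: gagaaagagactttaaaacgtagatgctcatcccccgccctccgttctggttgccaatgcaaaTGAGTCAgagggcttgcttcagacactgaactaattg
Cemip: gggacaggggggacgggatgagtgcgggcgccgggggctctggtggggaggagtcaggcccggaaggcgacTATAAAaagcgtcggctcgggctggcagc

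Both strands of the windows were searched for 6 motifs. Of all 32851 mouse windows, TGACGTCA was in 1.79%, TGANTCA in 7.81%, TATAAA in 13.6%, the C/EBP motif TTGCNNAA in 10.8%, an NF-kB motif in 0.411% and the GC box GGGCGG in 35.7%. Among the members, GGGCGG was found in the windows of *Hyal1*, *Hyal2*, *Cemip*, *Vcan*, *Tnfaip6* and *Cd44*, and TTGCNNAA in that of *Has1*. The NF-kB motif was in none of the 7 windows. None of these motifs overlapped another in the 3 pieces printed, and a match describes letters in the window only.

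In SHAM mice, 8 of the 9 hyaluronan genes were called against No operation, 7 higher and 1 lower. In Laminectomy mice 6 were called, 5 higher and 1 lower. A call needed an adjusted p below 0.05 and a log2 fold change beyond 0.5 in either direction. Both came from the quasi-likelihood test of edgeR, and p was adjusted by Benjamini and Hochberg's method over the 14765 genes tested. Calls were common in the table as a whole, at 50.8% of genes tested in SHAM and 48.6% in Laminectomy mice. By direction, 25.7% were called higher and 25.1% lower in SHAM mice, and 24.2% and 24.4% in Laminectomy mice. An unadjusted p below 0.05 was reached by 8 of the 9 genes in each comparison (65.7% and 64% of all genes tested). The median log2 fold change of the 9 genes was 1.72 in SHAM and 1.43 in Laminectomy mice, against -0.00195 and 0.00927 over all genes tested. Their median size regardless of sign was 1.90 and 1.65, against 0.636 and 0.592. The 4 SHAM mice did not overlap the 4 No operation mice for 7 of the 9 genes (54.5% of all genes tested), and the Laminectomy mice did not overlap them for 6 (56% of all genes tested). The smallest p that an exact permutation test of 4 mice against 4 can give is 0.0286, which the non-overlapping genes reached (two-sided, 0.0593 after Benjamini-Hochberg adjustment over 27 tests).

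**Figure D1:**
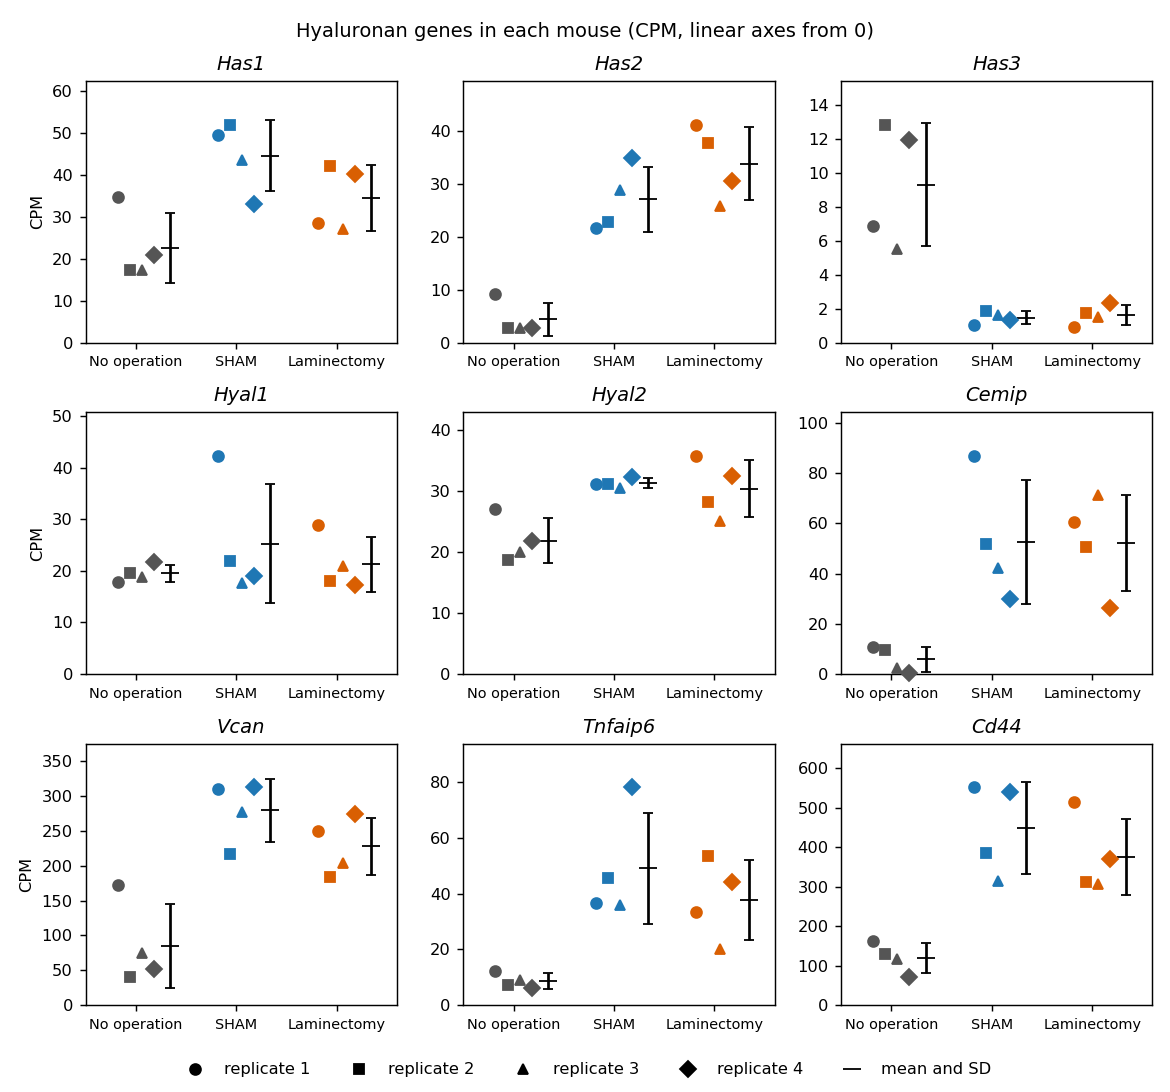
CPM of each hyaluronan gene (vertical axis, linear from 0) in each mouse of the 3 groups, with a symbol for each replicate and the mean and SD of the 4 mice beside them. *Has2*, *Cemip*, *Vcan*, *Tnfaip6* and *Cd44* lie higher and *Has3* lower in all 8 surgical mice than in all 4 No operation mice, while the groups overlap for *Hyal1*.

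The 3 synthases moved apart. *Has2* rose and *Has3* fell in both surgical groups, and *Has1* rose in SHAM mice. *Has2* (identifier 15117, chromosome 15 of GRCm38, 56665627 to 56694539, minus strand) encodes the synthase that is required for heart development in the embryo and that makes long chains. Its level was 9.17, 2.83, 2.80 and 2.80 CPM in the No operation group (mice 1 to 4), 21.75, 22.8, 28.8 and 35.0 CPM in the SHAM group and 41.2, 37.6, 25.85 and 30.5 CPM in the Laminectomy group. Every surgical mouse was above every No operation mouse, and No operation mouse 1 stood above the other 3 of its group. SHAM mice gave a log2 fold change of 2.62 (SE, its standard error, 0.38, 95% confidence interval 1.79 to 3.45, adjusted p = 0.00013, edgeR) and 2.94 in Laminectomy mice (SE 0.383, interval 2.10 to 3.78, adjusted p = 8.25e-05, edgeR), or 6.16-fold and 7.68-fold. Without No operation mouse 1 these became 9.61-fold and 12-fold.

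*Has3* (identifier 15118, chromosome 8, 106870242 to 106884566, plus strand) encodes a synthase known for making shorter chains. Its level was 6.89, 12.85, 5.53 and 11.9 CPM in the No operation group, 1.01, 1.87, 1.64 and 1.335 CPM in the SHAM group and 0.900, 1.75, 1.502 and 2.35 CPM in the Laminectomy group. This was the reverse of *Has2*, with every surgical mouse below every No operation mouse and a fall of 6.32-fold in SHAM (log2 fold change -2.66, SE 0.362, adjusted p = 8.49e-05, edgeR) and 5.7-fold in Laminectomy mice (-2.51, SE 0.359, adjusted p = 0.000146, edgeR). The muscle fibre markers fell over the same mice. *Has3* shares 352 exon bases with *Chtf8* on the opposite strand, and *Has2* shares 182 with *Has2os*, whose reads cannot be told apart from theirs if strand was not used in counting, as at the default settings the study names.

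*Has1* (identifier 15116, chromosome 17, 17843323 to 17855205, minus strand) encodes the remaining synthase of the family. Its level was 34.8, 17.4, 17.4 and 21.0 CPM in the No operation group, 49.6, 52.0, 43.6 and 33.0 CPM in the SHAM group and 28.4, 42.2, 26.99 and 40.3 CPM in the Laminectomy group. No operation mouse 1 was above 1 SHAM mouse and 2 Laminectomy mice, so the groups overlapped. SHAM mice had a log2 fold change of 0.98 (SE 0.246, adjusted p = 0.00487, edgeR; exact p = 0.0571) and 0.61 in Laminectomy mice (SE 0.245, interval 0.07 to 1.15, adjusted p = 0.0502, edgeR; exact p = 0.0857). The Laminectomy value missed the threshold by edgeR and passed it by DESeq2 (0.62, adjusted p = 0.0341) and without No operation mouse 1 (0.89, adjusted p = 0.00364, edgeR). It also passed with RLE size factors, with at least 10 counts in every mouse, and without SHAM mouse 4, Laminectomy mouse 1 or Laminectomy mouse 3 (0.61 to 0.71), while the SHAM call was lost where a log2 fold change above 1 was asked. Its values were not whole numbers in any mouse and its RefSeq span overlaps *Spaca6* and *Gm36907*, so how reads were split between them is uncertain.

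Because the synthases differ in length, their levels were set side by side as CPM per kilobase of exon. *Has1* held 58.9% to 71.6% of the summed synthase level in No operation mice, 46.4% to 67.5% in SHAM mice and 39.0% to 54.1% in Laminectomy mice. The share of *Has2* was 9.23% to 19.8%, 31.4% to 52.3% and 43.7% to 60.2% in the same order, and that of *Has3* 9.87% to 30.8%, 0.974% to 1.71% and 0.873% to 2.23%. The summed level was 5.38 to 10.95 CPM per kilobase in No operation, 15.8 to 17.2 in SHAM and 12.3 to 18.5 in Laminectomy mice, with no overlap between No operation and either surgical group. *Has1* was thus the leading synthase transcript in every No operation mouse, whereas *Has2* was close to it or above it in Laminectomy mice.

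Within each mouse, *Has1* was at 3.80, 6.13, 6.21 and 7.475 times the CPM of *Has2* in No operation mice, at 2.28, 2.28, 1.52 and 0.945 times in SHAM mice and at 0.690, 1.12, 1.04 and 1.32 times in Laminectomy mice. On the log2 scale the ratio was 2.48 ± 0.40, 0.72 ± 0.60 and 0.02 ± 0.40 (SD, n = 4 mice each). The difference from No operation was -1.76 in SHAM and -2.46 in Laminectomy mice, without overlap (two-sided exact permutation test, p = 0.0286 for each, the smallest possible, 0.0643 after adjustment over 9 tests of ratios). The SHAM and Laminectomy ratios overlapped and differed by -0.70 (exact permutation p = 0.143).

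**Figure D2:**
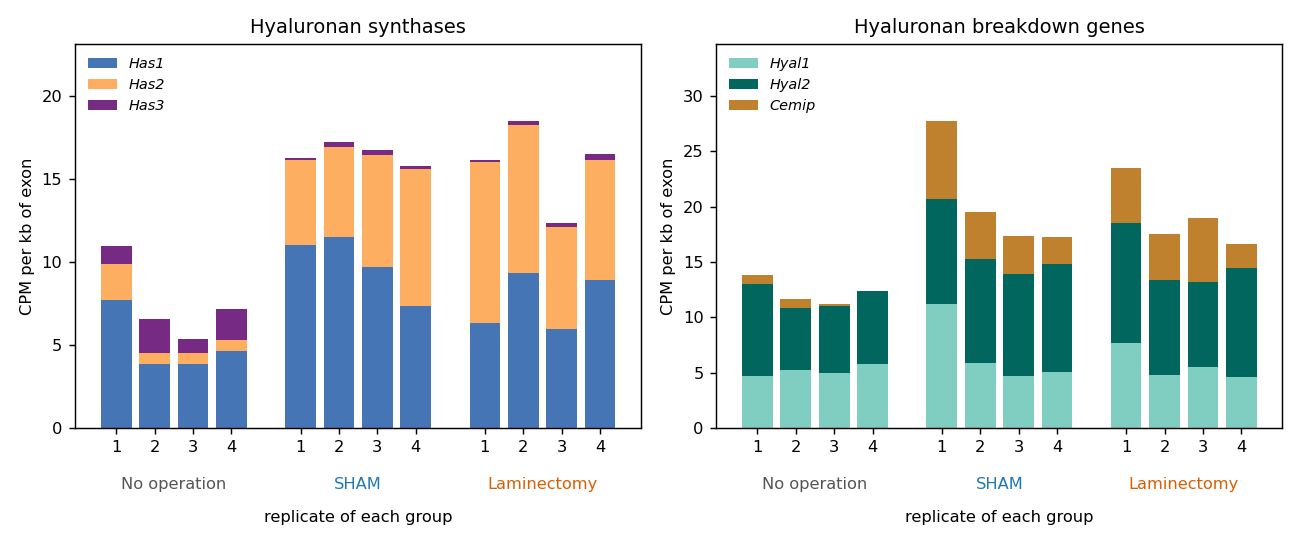
Stacked CPM per kilobase of exon in each mouse (horizontal axis, replicates 1 to 4 of each group) for the synthases (left) and the breakdown genes (right), from a linear axis at 0. *Has2* and *Cemip* take a larger part of the bar in the surgical mice and *Has3* a smaller part. *Hyal1* is highest in replicate 1 of each surgical group.

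Among the breakdown genes, *Cemip* rose about 9-fold in both surgical groups, *Hyal2* rose slightly in SHAM mice and *Hyal1* was called in neither group. *Cemip* (identifier 80982, chromosome 7, 83932857 to 84086502, minus strand) encodes a protein that binds hyaluronan and is needed for its depolymerisation by skin and synovial fibroblasts. Its level was 10.75, 9.38, 2.46 and 0.491 CPM in the No operation group, 86.9, 51.8, 42.05 and 29.7 CPM in the SHAM group and 60.6, 50.7, 71.3 and 26.3 CPM in the Laminectomy group. The No operation mice spread 21.9-fold among themselves, the widest spread of any of the 9 genes in any group, yet the lowest surgical mouse was above the highest of them. Against No operation, SHAM mice differed on the log2 scale by 3.18 (SE 0.681, interval 1.69 to 4.67, adjusted p = 0.00178, edgeR) and 3.17 in Laminectomy mice (SE 0.681, interval 1.68 to 4.66, adjusted p = 0.00197, edgeR). The No operation mouse with the lowest *Cemip*, mouse 4, also had the lowest summed fibroblast markers of its group (8900 CPM).

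*Hyal2* (identifier 15587, chromosome 9, 107567945 to 107572779, plus strand) encodes a hyaluronidase anchored at the cell surface. Its level was 27.15, 18.6, 19.98 and 21.8 CPM in the No operation group, 31.1, 31.2, 30.45 and 32.35 CPM in the SHAM group and 35.8, 28.3, 25.1 and 32.5 CPM in the Laminectomy group. The SHAM mice were tightly grouped, with a coefficient of variation of 2.51%, and all lay above the No operation mice, whereas 1 Laminectomy mouse lay below No operation mouse 1. SHAM mice differed from No operation mice by a log2 fold change of 0.52 (SE 0.134, adjusted p = 0.00584, edgeR) and 0.47 in Laminectomy mice (SE 0.134, interval 0.18 to 0.77, adjusted p = 0.00968, edgeR), the latter under the fold threshold. Both stood close to that threshold. The SHAM call was lost without No operation mouse 2 (0.44) or mouse 3 (0.47) and with a log2 fold change above 1 asked, and the Laminectomy value was called without No operation mouse 1 (0.59), Laminectomy mouse 2 (0.51) or Laminectomy mouse 3 (0.56).

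*Hyal1* (identifier 15586, chromosome 9, 107576927 to 107581710, plus strand) encodes the lysosomal hyaluronidase. Its level was 17.85, 19.65, 18.7 and 21.7 CPM in the No operation group, 42.3, 22.0, 17.7 and 18.95 CPM in the SHAM group and 29.0, 18.05, 20.9 and 17.3 CPM in the Laminectomy group. Replicate 1 of each surgical group was the highest of its group and the rest lay among or near the No operation mice. The log2 fold change in SHAM mice was 0.37 (interval -0.20 to 0.95, adjusted p = 0.237, edgeR) and 0.13 in Laminectomy mice (interval -0.45 to 0.71, adjusted p = 0.696, edgeR). Without SHAM mouse 1, which also had the highest summed macrophage markers of all mice (5580 CPM), the SHAM value was 0.0057. *Hyal1* shares 1920 exon bases with *Naa80* and 159 with *Hyal3* on its own strand, and its values were not whole numbers in any mouse, so its level is uncertain.

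Within each mouse, *Cemip* was at 0.602, 0.478, 0.132 and 0.0226 times the CPM of *Hyal1* in No operation mice, at 2.05, 2.355, 2.37 and 1.57 times in SHAM mice and at 2.09, 2.81, 3.41 and 1.52 times in Laminectomy mice. The log2 ratio was -2.46 ± 2.04, 1.04 ± 0.278 and 1.23 ± 0.508 (SD, n = 4 mice each). The differences from No operation, 3.50 and 3.68, left no overlap (two-sided exact permutation test, p = 0.0286 for each, 0.0643 after adjustment). Without No operation mouse 4 they were 2.59 and 2.78. Per kilobase of exon, *Hyal2* and *Hyal1* together still made up most of the breakdown transcripts in every mouse, since *Cemip* took 0.323% to 6.6% of their sum in No operation, 14.1% to 25.6% in SHAM and 12.9% to 30.7% in Laminectomy mice. The summed breakdown level was 11.2 to 13.85, 17.3 to 27.8 and 16.6 to 23.5 CPM per kilobase in the same order, with no overlap between No operation and surgical mice.

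All 3 binding genes rose in both surgical groups. *Tnfaip6* (identifier 21930, chromosome 2, 52038009 to 52056686, plus strand) encodes TSG-6, which transfers heavy chains of inter-alpha-inhibitor onto hyaluronan. Its level was 12.3, 7.05, 8.99 and 6.24 CPM in the No operation group, 36.7, 45.5, 36.0 and 78.15 CPM in the SHAM group and 33.5, 53.4, 20.15 and 44.2 CPM in the Laminectomy group. All 8 surgical mice were above all 4 No operation mice, and SHAM mouse 4 was the highest. The rise was 5.67-fold in SHAM (log2 fold change 2.50, SE 0.355, adjusted p = 0.000112, edgeR) and 4.37-fold in Laminectomy mice (2.13, SE 0.351, adjusted p = 0.000372, edgeR).

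*Cd44* (identifier 12505, chromosome 2, 102811141 to 102901665, minus strand) encodes the main cell-surface receptor for hyaluronan, carried by leukocytes and by stromal cells. Its level was 163, 129, 117 and 70.2 CPM in the No operation group, 552, 386, 314 and 540.0 CPM in the SHAM group and 513.5, 313, 305.5 and 369.7 CPM in the Laminectomy group. The lowest surgical mouse again stood above the highest No operation mouse. In the SHAM group the log2 fold change came to 1.90 (SE 0.28, interval 1.29 to 2.52, adjusted p = 0.000143, edgeR) and 1.65 in Laminectomy mice (SE 0.278, interval 1.04 to 2.26, adjusted p = 0.000425, edgeR), 3.74-fold and 3.13-fold. Macrophage and fibroblast markers rose over the same mice.

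*Vcan* (identifier 13003, chromosome 13, 89655312 to 89742509, minus strand) encodes versican, a large proteoglycan that binds hyaluronan at one end. Its level was 172.0, 40.6, 75.4 and 51.7 CPM in the No operation group, 311, 217, 277 and 313 CPM in the SHAM group and 249.8, 185, 203.5 and 274 CPM in the Laminectomy group. No operation mouse 1 came close to the lowest Laminectomy mouse without reaching it, and the other 3 were far below. For the SHAM group the fit gave a log2 fold change of 1.72 (SE 0.381, interval 0.88 to 2.55, adjusted p = 0.00222, edgeR) and 1.43 in Laminectomy mice (SE 0.378, interval 0.60 to 2.25, adjusted p = 0.00691, edgeR), 3.29-fold and 2.68-fold. Without No operation mouse 1 these became 5.0-fold and 4.08-fold.

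*Tnfaip6* and *Cd44* kept a ratio whose groups overlapped. Its log2 value was -3.76 ± 0.297 in No operation, -3.23 ± 0.479 in SHAM and -3.36 ± 0.681 in Laminectomy mice (SD, n = 4 mice each). The difference from No operation was 0.53 in SHAM (two-sided exact permutation p = 0.114) and 0.39 in Laminectomy mice (exact permutation p = 0.343).

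**Figure D3:**
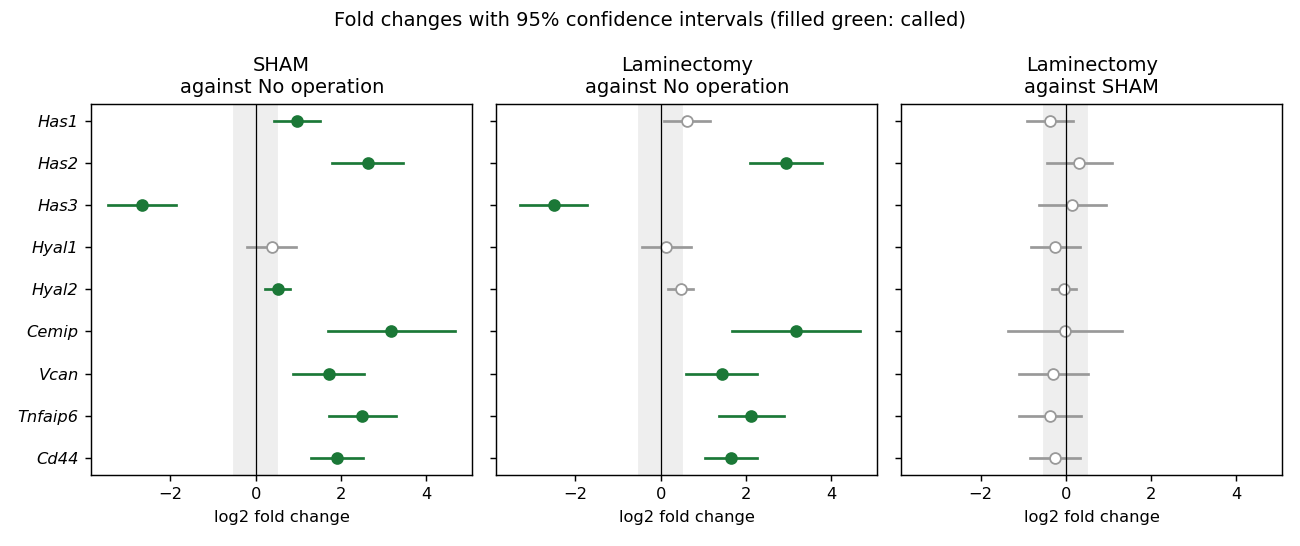
Log2 fold change of each hyaluronan gene (point) with its 95% confidence interval (line) in the 3 comparisons, from edgeR's fit of all 12 mice. Filled green points are calls, open grey points are not, and the grey band spans log2 fold changes of -0.5 to 0.5. Against No operation, the intervals of *Has1*, *Has2*, *Hyal2*, *Cemip*, *Vcan*, *Tnfaip6* and *Cd44* lie above 0, those of *Has3* lie below 0 and those of *Hyal1* cover 0. All 9 intervals cover 0 between Laminectomy and SHAM.

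Opening the spinal canal could be compared with soft tissue surgery alone by setting Laminectomy against SHAM. By edgeR, 0 of the 9 hyaluronan genes were called (0% of all genes tested), 0 had an unadjusted p below 0.05, and DESeq2 called 0 as well. Over all 14765 genes edgeR also called 0, although 2359 (16%) had an unadjusted p below 0.05, and DESeq2 called 687. The mice of both groups overlapped for all 9 genes, whereas 10.1% of all genes did not overlap. The estimates were below 0 in Laminectomy mice for 7 of the 9, all but *Has2* and *Has3*. Those of *Cemip* (-0.01) and *Hyal2* (-0.04) were close to 0. The signs of *Cemip*, *Hyal2*, *Hyal1* and *Has3* turned when certain single mice were left out. The median log2 fold change of the 9 was -0.24, against 0.00372 over all genes.

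The intervals of these differences came from the fit of all 12 mice, so they also carry the spread among No operation mice. For *Hyal2* the log2 fold change between Laminectomy and SHAM was -0.04 with an interval of -0.33 to 0.25, the narrowest of the 9. For *Has1* it was -0.37 (-0.90 to 0.16), for *Has2* 0.32 (-0.44 to 1.08) and for *Has3* 0.15 (-0.64 to 0.93). For *Cemip*, at -0.01, the interval ran from -1.34 to 1.32, and in a fit of the 8 SHAM and Laminectomy mice alone from -0.86 to 0.82 around -0.02. That fit also narrowed the intervals of *Has2* (-0.11 to 0.75) and *Vcan* (-0.67 to 0.08), and those of *Has1*, *Hyal2* and *Cd44*. It widened those of *Has3* (-0.64 to 0.94), *Hyal1* (-0.92 to 0.42) and *Tnfaip6* (-1.14 to 0.39), and called 0 of the 9 as well. In the fit of all 12 mice, the other 4 were -0.24 for *Hyal1* (-0.82 to 0.33), -0.29 for *Vcan* (-1.10 to 0.52), -0.38 for *Tnfaip6* (-1.10 to 0.35) and -0.26 for *Cd44* (-0.85 to 0.34). Adjusted p-values ran from 0.476 to 0.995 (edgeR).

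Levels of different genes were ranked only per kilobase of exon. In No operation mice *Cd44* was the highest of the 9, at a mean of 17.7 CPM per kilobase, and its mice did not overlap those of *Hyal2*, the next by mean, although *Vcan* in its highest mouse (11.9) was above *Cd44* in its lowest (10.4). *Hyal2* (6.65), *Vcan* (5.87), *Hyal1* (5.16), *Tnfaip6* (5.06) and *Has1* (5.01) formed a middle group whose neighbours overlapped. *Has3* (1.46), *Has2* (1.04) and *Cemip* (0.472) were lowest, below *Has1* without overlap. In SHAM mice the order was *Cd44* (66.1), then *Tnfaip6* (28.7) and *Vcan* (19.3), then *Has1* (9.87), *Hyal2* (9.50), *Hyal1* (6.69), *Has2* (6.39) and *Cemip* (4.30), and last *Has3* (0.230). Laminectomy mice gave the same 4 steps, with *Cd44* at 55.4, *Tnfaip6* at 22.1, *Vcan* at 15.8, a group from *Hyal2* (9.24) through *Has2* (7.975), *Has1* (7.63) and *Hyal1* (5.64) to *Cemip* (4.27), and *Has3* at 0.255. In both surgical groups neighbours within a step overlapped and the steps did not. In No operation mice the levels of *Tnfaip6* and *Vcan* thus overlapped that of *Has1*, and in surgical mice they were above every synthase.

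Single mice carried part of the spread. No operation mouse 1 was the highest of its group for 7 of the 9 genes (*Has1*, *Has2*, *Hyal2*, *Cemip*, *Vcan*, *Tnfaip6* and *Cd44*), and it also had the highest summed fibroblast (28300 CPM) and macrophage markers (1360 CPM) of that group. SHAM mouse 4 was the highest of its group for *Has2*, *Hyal2*, *Vcan* and *Tnfaip6* and the lowest for *Has1* and *Cemip*. Laminectomy mouse 3 was the lowest for *Has1*, *Has2*, *Hyal2*, *Tnfaip6* and *Cd44* and the highest for *Cemip*. The part of cell makeup in these orders was not tested.

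The genes whose log2 CPM followed 8 of the members most closely over all 12 mice were looked up among 10627 genes with a mean of at least 10 CPM. Pearson's r was 0.964 between *Has1* and *Tmem127*, 0.982 between *Has3* and *Dyrk1b*, 0.862 between *Hyal1* and *Atp6ap1*, and 0.969 between *Hyal2* and *Creld2*. It was 0.976 between *Cemip* and *Cd84*, 0.978 between *Vcan* and *Fstl1*, 0.981 between *Tnfaip6* and *Usp12*, and 0.993 between *Cd44* and *Clic1*. These values describe 12 points that share the difference between No operation and surgical tissue. *Hyal1*, the member called in neither surgical group, had the lowest.

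Other genes of hyaluronan supply, breakdown and binding were followed in 6 lists of 47 genes, of which 46 were in the table and 37 were tested. Against No operation, 28 of the 37 were called in SHAM mice (20 higher, 8 lower) and 22 in Laminectomy mice (15 higher, 7 lower), beside 50.8% and 48.6% of all genes. All 7 enzymes that supply the sugar precursors were tested, and in SHAM mice 2 were higher and 1 lower. *Ugp2*, which makes UDP-glucose, fell from 829 ± 116 CPM in No operation to 158 ± 26.0 in SHAM and 153 ± 29.96 in Laminectomy mice (SD, n = 4 each; log2 fold changes -2.39 and -2.44, adjusted p = 3.1e-06 and 5.06e-06, edgeR). *Ugdh*, which turns UDP-glucose into UDP-glucuronic acid, rose in SHAM mice (81.0 to 169.6 CPM, log2 fold change 1.07, adjusted p = 0.00155, edgeR) and was at 116 CPM in Laminectomy mice (0.51, adjusted p = 0.0635, edgeR). *Pgm3*, an enzyme on the way to UDP-N-acetylglucosamine, rose in both groups, from 15.8 CPM to 32.8 in SHAM (log2 fold change 1.05, adjusted p = 0.000117, edgeR) and 32.2 in Laminectomy mice (1.03, adjusted p = 0.000164, edgeR). In Laminectomy mice 1 of the 7 enzymes was higher and 2 were lower.

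Of the genes of further breakdown, *Cemip2*, *Gusb* and *Hexa* were called higher in both surgical groups. *Gusb*, the lysosomal beta-glucuronidase, had the largest rise of these, from 56.5 CPM to 205 in SHAM (log2 fold change 1.86, adjusted p = 8.91e-06, edgeR) and 203.5 in Laminectomy mice (1.85, adjusted p = 1.21e-05, edgeR). Of the other hyaluronidases, *Hyal3* had a mean of 0.402 CPM in No operation mice and was filtered out, and *Hyal4*, *Hyal5* and *Hyal6* were not tested either. Macrophage markers rose over the same mice, and their part in these rises was not tested.

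Among the other hyaluronan-binding matrix genes, 10 of 15 were tested, with 3 higher and 3 lower in SHAM and 4 higher and 2 lower in Laminectomy mice. *Ptx3*, a pentraxin that with TSG-6 builds the hyaluronan matrix around the egg, rose from 11.4 ± 1.44 CPM to 151 ± 89.0 in SHAM mice (log2 fold change 3.73, adjusted p = 1.12e-05, edgeR) and to 85.4 ± 19.8 in Laminectomy mice (2.91, adjusted p = 5.01e-05, edgeR). *Bcan*, the proteoglycan brevican, had the largest called rise of the list in Laminectomy mice (0.310 to 5.78 CPM, log2 fold change 4.17, adjusted p = 0.00023, edgeR) and rose in SHAM mice as well (to 2.11 CPM, 2.72, adjusted p = 0.00302, edgeR). Laminectomy mouse 2, at 12.5 CPM, was the highest for *Bcan* and had the highest neuron and CNS glia marker sum of all mice (780 CPM), and without it the Laminectomy value was 3.46. Without No operation mouse 2 the log2 fold changes of *Bcan* were 4.93 in Laminectomy and 3.48 in SHAM mice. *Habp2*, a blood protease first found as a hyaluronan-binding protein, fell in SHAM (4.11 to 0.711 CPM, -2.52, adjusted p = 0.000373, edgeR) and in Laminectomy mice (to 0.519 CPM, -2.97, adjusted p = 0.000174, edgeR).

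All 7 further receptors were tested, with 5 higher and 2 lower in SHAM mice and 4 higher and 1 lower in Laminectomy mice. *Tlr2*, an innate immune receptor, rose from 15.3 CPM to 95.2 in SHAM (log2 fold change 2.64, adjusted p = 8.97e-05, edgeR) and 58.1 in Laminectomy mice (1.93, adjusted p = 0.000747, edgeR). *Stab2*, a scavenger receptor that clears hyaluronan, fell in SHAM mice from 7.14 to 1.94 CPM (-1.88, adjusted p = 0.00168, edgeR) and was at 4.02 CPM in Laminectomy mice (-0.83, adjusted p = 0.0813, edgeR). *Hmmr*, a receptor that also binds the mitotic spindle, rose from 5.21 CPM to 20.4 in SHAM (1.96, adjusted p = 0.0218, edgeR) and 28.4 in Laminectomy mice (2.44, adjusted p = 0.00802, edgeR). Without No operation mouse 2, at 13.0 CPM the highest of its group, these were 2.96 and 3.44, and the SHAM call of *Hmmr* was lost without No operation mouse 1 or 3 or SHAM mouse 4 (adjusted p = 0.053 to 0.0575, edgeR). *Lyve1*, the receptor of lymphatic endothelium and of some macrophages, fell from 109 CPM to 37.6 in SHAM (-1.53, adjusted p = 0.0369, edgeR, with overlap between the mice) and 16.8 in Laminectomy mice (-2.69, adjusted p = 0.00258, edgeR). Its SHAM call was lost without No operation mouse 1, 3 or 4 or SHAM mouse 2 or 4 (adjusted p = 0.0586 to 0.0932, edgeR). Of the 6 lymphatic markers, a list that holds *Lyve1*, 5 were lower and 1 higher in SHAM mice and 4 lower and 1 higher in Laminectomy mice. *Cd44* and *Lyve1*, both hyaluronan receptors, thus moved in opposite directions in Laminectomy mice.

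Of 6 proteases that cleave versican, 4 were higher and 1 lower in SHAM mice and 1 higher and 1 lower in Laminectomy mice. The SHAM call of *Adamts5* (0.67) was lost without No operation mouse 1 or 4 or SHAM mouse 1 (adjusted p = 0.0575 to 0.0819, edgeR). That of *Adamts9* (0.57) was lost without SHAM mouse 4, where the log2 fold change was 0.48. *Adamts4* rose from 7.19 ± 9.17 CPM to 83.8 ± 16.8 in SHAM (log2 fold change 3.55, adjusted p = 0.000682, edgeR) and 104 ± 21.6 in Laminectomy mice (3.85, adjusted p = 0.000484, edgeR). No operation mouse 1, at 20.9 CPM, was far above the other 3 of its group (1.54 to 3.53 CPM), and without it the log2 fold changes were 4.99 and 5.29. *Adamts20* fell from 33.5 CPM to 5.29 (-2.66, adjusted p = 3.54e-05, edgeR) and 6.50 (-2.37, adjusted p = 8.64e-05, edgeR). Of the 3 linkers that tie CD44 to the actin cytoskeleton, 2 were higher and 1 lower in SHAM mice, and 1 was higher and 1 lower in Laminectomy mice. *Ezr* (ezrin) rose in SHAM mice from 43.8 to 88.4 CPM (1.01, adjusted p = 0.0102, edgeR) and was at 70.1 CPM in Laminectomy mice (0.68, adjusted p = 0.0618, edgeR). *Msn* (moesin) rose from 308 CPM to 668 and 669 (1.12 in both groups, adjusted p = 0.000889 and 0.000984, edgeR). *Rdx* (radixin) fell from 267.5 to 146 and 161 (-0.87 and -0.73, adjusted p = 5.79e-05 and 0.000224, edgeR).

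**Figure D4:**
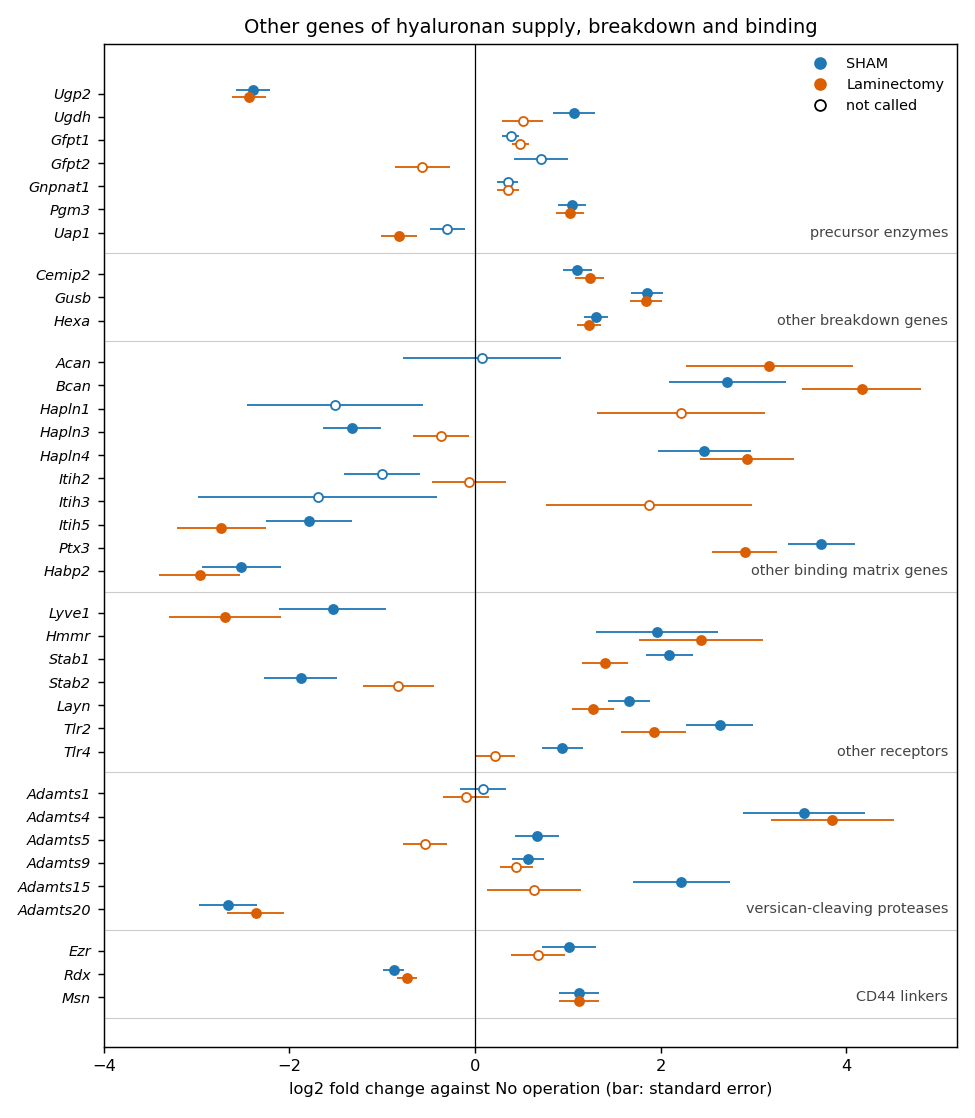
Log2 fold change against No operation (point) with its SE (bar) for tested genes of the 6 lists, in SHAM (blue) and Laminectomy mice (orange), with calls filled and genes not called open. *Cemip2*, *Gusb* and *Hexa* lie above 0 in both groups, *Ugp2*, *Habp2* and *Adamts20* lie below -2, and *Acan* and *Hapln1* lie apart between the groups.

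Between Laminectomy and SHAM, edgeR called 0 of the 37 list genes it tested (0% of all genes), and 16 of the 37 had an unadjusted p below 0.05, beside 16% of all genes. DESeq2 gave an adjusted p to 43 list genes and called 9, beside 687 of 16357 genes (4.2%) in the whole table. Of the 9, 6 were among the 37 and 3 were removed by the filter on low counts. All 9 were named after their values were seen. By DESeq2, *Acan* (aggrecan, log2 fold change 3.11, adjusted p = 0.0261) and *Hapln1* (a link protein, 3.75, adjusted p = 0.00408) were higher in Laminectomy mice. *Gfpt2* (-1.27, adjusted p = 0.00423), *Tlr4* (-0.72, adjusted p = 0.0496), *Adamts5* (-1.20, adjusted p = 0.000527) and *Adamts15* (-1.58, adjusted p = 0.0387) were lower by DESeq2. The 3 filtered genes had few counts and DESeq2's folds for them are not given. *Ncan* (neurocan) was at 0.0529, 2.365, 0.363 and 0.0521 CPM and *Hapln2* at 0.0529, 4.73, 1.295 and 0.0521 CPM in Laminectomy mice 1 to 4, so mouse 2 carried most of both and mice 1 and 4 were within the SHAM range (at most 0.053 and 0.112 CPM). *Ambp* was at 1.12 CPM or less in every mouse. *Acan* had a mean of 138.5 ± 70.1 CPM in Laminectomy, 16.1 ± 12.5 in SHAM and 15.3 ± 13.7 in No operation mice (SD, n = 4 each). The 12 cartilage markers, which include *Acan* and *Hapln1*, summed to 499 to 2000 CPM in Laminectomy, 28.6 to 283 in SHAM and 296 to 1550 in No operation mice. *Col11a2* and *Comp* had the highest means of this list, so the sum need not follow its other genes. Against No operation, 4 of the 11 tested were higher and 1 lower in Laminectomy mice (median log2 fold change 2.2). In SHAM mice 1 was higher and 3 were lower (median -0.94). The neuron and CNS glia markers reached 780 CPM in Laminectomy mouse 2, against at most 161 in any No operation or SHAM mouse. Their part in these differences was not tested.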

How the data were processed

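RNA of 12 mice (4 per group) was sequenced as stranded, paired-end mRNA libraries. Per the labels and the study's methods, the authors aligned reads with STAR 2.6.1b to GRCm38, counted with featureCounts 2.0.1 at default settings and tested with DESeq2 1.30.1. At default settings featureCounts ignores strand and gives whole numbers. The deposited table holds estimated counts that are not normalized: 10.22% of values, in 2933 genes, are not whole, and no source used here names the step that made them so, which leaves the settings behind them uncertain. The design had assumed whole counts, so values were rounded (change at most 0.5). There were 0 columns of other samples, and no pair of libraries of a group agreed within counting noise. Depth covers counting error only, since reads carried no molecular identifiers.

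Groups came from the labels, which give no batch, and p-values measure the spread between these mice. Genes were filtered with edgeR's filterByExpr (4231 removed), scaled by TMM (factors 0.8487 to 1.134) and fitted over all 12 mice with edgeR 4.0.16 (glmQLFit, glmQLFTest; R 4.3.3). The common dispersion was 0.0799 (biological coefficient of variation 28.3%). CPM used TMM-scaled library sizes, exon lengths and coordinates came from GENCODE M21 (GRCm38), and promoters from RefSeq. Exact permutation tests were two-sided on log2 CPM (prior count 2). Members and lists were chosen with earlier results of these data known. List genes were named as the largest non-overlapping called rise and fall of each list in each comparison with No operation, with at least 1 CPM in the higher group, and like genes by Pearson's r. Named outside this rule were *Ezr*, *Cemip2*, *Hexa*, *Adamts9*, the hyaluronidases that were not tested and the 9 list genes called by DESeq2.

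On simulated counts, edgeR recovered 98% of 100 genes changed by 2 on the log2 scale and 54% of 100 changed by 1 for SHAM against No operation (14680 genes), 99% and 45% for Laminectomy against No operation (14686 genes), and 97% and 39% for Laminectomy against SHAM (14691 genes). In these simulations every gene had the common dispersion, and all genes but those changed were alike in the groups. The data held genes of wider spread and many more calls against No operation, so these shares do not carry over to them. Alternatives were DESeq2 1.42.0, RLE size factors, other filters, a stricter fold threshold, fits of 2 groups, a replicate block, another prior count and leaving out each mouse. Results for some items are not reported here.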

Additional observations from a re-analysis of the deposited data

Results flagged for a closer look

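*Has2* in No operation mouse 1, at 9.17 CPM, lay far from the other 3 mice of its group, of which the nearest was at 2.83 CPM (a gap of 0.994 of the group's range). Of 27 groups of 4 mice examined in this way, 1 was singled out, where chance gives about 1 in 20, or 1.35. The same mouse had the highest fibroblast and macrophage marker sums of its group, and their part was not tested.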

How the results depend on the processing

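Of 510 refits of the 27 fold changes, 488 kept their direction and side of the threshold, 4 lost the call, 10 gained it and 8 turned direction. The calls that changed were of *Has1* and *Hyal2* and are given above. Turned directions were all of values that were not called. Leaving out single mice, the log2 fold change of *Hyal1* ran from -0.053 to 0.217 for Laminectomy against No operation and, between Laminectomy and SHAM, from -0.43 to 0.13, that of *Has3* from -0.0836 to 0.345, *Hyal2* from -0.129 to 0.0414 and *Cemip* from -0.21 to 0.35. As differences of mean log2 CPM these ran from -0.0554 to 0.191, -0.338 to 0.0982, -0.0903 to 0.336, -0.136 to 0.0346 and -0.23 to 0.31. The log2 ratio of *Tnfaip6* to *Cd44* between Laminectomy and SHAM ran from -0.412 to 0.0507. That of *Has1* to *Has2* against No operation ran from -1.95 to -1.49 in SHAM and from -2.65 to -2.27 in Laminectomy mice, and that of *Cemip* to *Hyal1* from 2.59 to 4.07 and from 2.78 to 4.26. With 3 mice against 4 their exact permutation p was 0.0571, the smallest possible, so the loss of the threshold comes from fewer mice.

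Members called numbered 7 to 8 in SHAM and 6 to 8 in Laminectomy mice without single mice, and list genes 26 to 30 and 22 to 27. DESeq2 called 9 list genes between Laminectomy and SHAM where edgeR called 0. Of the 9, 3 were not among the genes edgeR tested, and for the other 6 the cause was not tested. With a log2 fold change above 1 asked, 4589 and 4323 of all genes were called against No operation, in place of 7502 and 7183. *Cemip* could not be tested where at least 10 counts were asked in every mouse. Replicate numbers are shared by the groups, but no label ties them to shared animals or days, and the deviations of same-numbered mice correlated from -0.228 to 0.352, with 7 of 12 over 0.1. Not every mouse correlated best with its own number. A replicate block changed no call of the 9 genes, turned *Cemip* between Laminectomy and SHAM to 0.0493, and called 29 and 24 list genes. With 4 mice a group in the simulation, where few genes were changed, changes of 1 on the log2 scale were often missed. Against No operation, where many genes were called, smaller log2 fold changes also passed (*Hyal2* in SHAM mice, 0.52, adjusted p = 0.00584, edgeR).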
